A study of Mus musculus with 6 samples.

Results

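Cells build ribosomes in the nucleolus, and the messenger RNAs described here encode 35 of the proteins that do this work: nucleolar scaffold proteins, RNA polymerase I subunits, the cores of both kinds of small nucleolar ribonucleoprotein (snoRNP), and assembly factors of the small and the large ribosomal subunit. They were taken by gene symbol from a list of pathway genes drawn up with earlier results of these data known, and each of the 35 symbols occurs once among the 54100 genes of the count table. RNA came from fibro-adipogenic progenitors (FAPs), mesenchymal cells of skeletal muscle carrying the receptor Pdgfra, taken from the plantaris, a calf muscle, of C57BL/6 mice. The control group was sham muscle and the other group was overloaded muscle, with 3 libraries each and 1000 sorted cells per tube. How load was imposed, for how long, the age of the mice and whether libraries come from separate animals are not stated in the labels. All p-values here therefore rest on variation among libraries, part of which may be technical.

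Ribosome production starts when RNA polymerase I copies the ribosomal DNA into a long precursor RNA. Box C/D snoRNPs then methylate that RNA, box H/ACA snoRNPs convert uridines in it to pseudouridine, and a series of assembly factors fold, cut and export the precursors of both subunits. Output follows cell growth, and the transcription factor Myc, which binds with Max to the DNA element called the E-box, is a well-known activator of these genes. Fibroblast-like cells that leave rest to grow and divide are known to enlarge their nucleoli.

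Total counts were 500402 to 754456 in sham and 850857 to 1124210 in overloaded libraries. A filter on low counts kept 7207 genes for testing. Levels are in CPM, counts scaled by TMM to a tested-gene total of 1000000, and a gene is called when edgeR's quasi-likelihood test gives an adjusted p under 0.05 over all genes tested. Of the FAP markers checked, Pdgfra was at 769, 779.8 and 1021 CPM in sham libraries 1 to 3 and at 607, 416 and 759 CPM in overloaded libraries 1 to 3, and Dcn, which encodes decorin, was at 20309.8 and 8208 CPM on average. Both were detected in every library. Values with ± are means and SD over the 3 libraries of a group, and gene positions are from GENCODE M21 on GRCm38. In bulk libraries such as these, fewer cells that express a gene and less RNA per cell cannot be told apart.

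Many of the ribosome biogenesis genes tested were higher in FAPs of overloaded muscle. Of the 35 genes, 32 passed the filter, 18 of these (56.2%) rose, 1 fell and 13 were not called. Over all genes tested, 15% rose and 14.3% fell. The median log2 fold change was 1.07 for the 32 genes and -0.02 for all genes tested, with 28 of the 32 above 0 compared with 48.8% of all genes. Each overloaded library lay above each sham library for 20 of the 32 genes, against 21.2% of all genes tested. A fold change above 2 was found for 14 of the 18 genes that rose. Some other tests of the same 32 genes called fewer higher, 15 with DESeq2's Wald test or with scaling by library size only. The number was 16 with limma-voom or the replicate block and 11 with a covariate for background reads, described below. With DESeq2 size factors it stayed at 18.

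These shares need to be read with the filter, because 12 of the 32 genes passed it only with the help of overloaded libraries, and in 4 of them (Fbl, Nhp2, Bysl and Noc2l) no sham library reached the filter level of 12.5 CPM. With no filter on low counts all 35 genes entered the fit, 31 had a log2 fold change above 0 and 16 were higher, against 3.8% of 28251 genes. That share is not a like comparison, because 7207 of the 28251 genes passed the filter and 32 of the 35 did. In the filtered fit, 20 members had all 3 sham libraries at the filter level, and 11 of these rose and 1 fell. The shares of 15% and 14.3% over all genes tested were not limited in that way. Precision differed between genes. Total counts differed too, but they include the overloaded libraries and so are not independent of the call. The median total count over the 6 libraries was 236 for the genes that rose and 129 for those not called, and the median standard error (SE) of a log2 fold change was 0.33 and 0.41 in the same order. Failing the test therefore does not show that a gene stayed at one level.

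**Figure D1:**
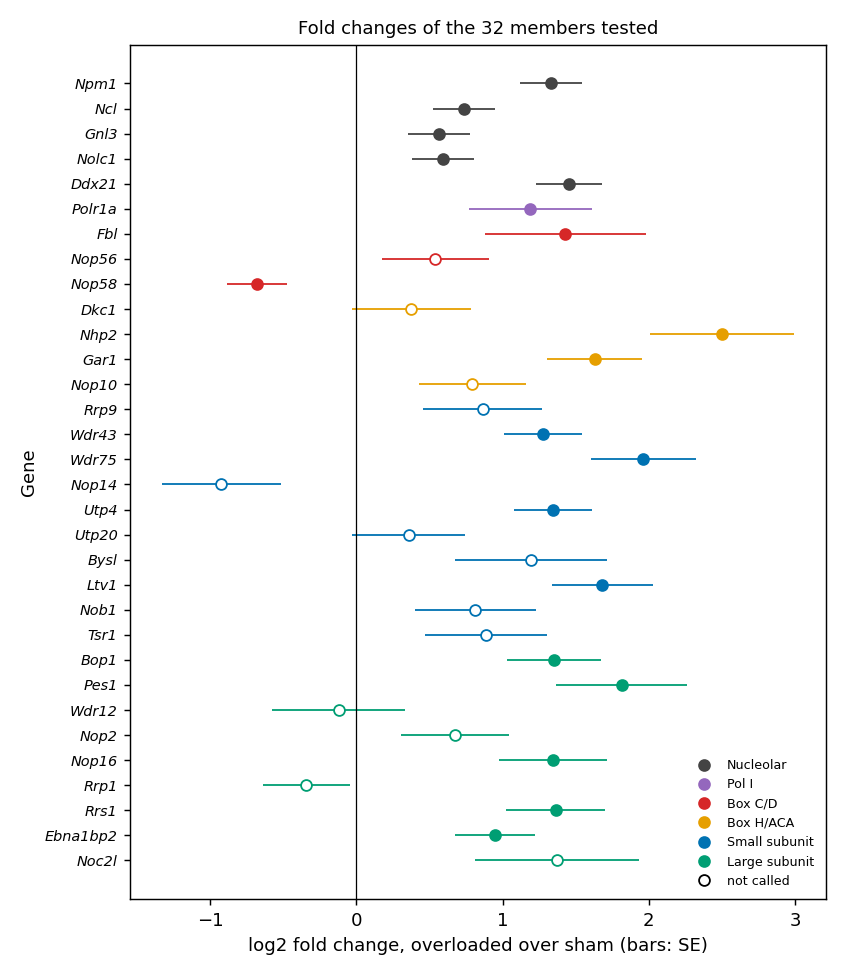
Log2 fold change (overloaded over sham, horizontal axis) with its SE for the 32 genes tested, coloured by step, with open circles for genes not called. Values run from -0.92 for Nop14 to 2.5 for Nhp2, and 28 of the 32 points lie right of 0.

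The promoters were searched for the E-box, CACGTG, which reads the same on both strands. RefSeq promoter windows on GRCm38.p6, from 250 bases before to 50 bases after the start site, were matched by symbol for 30 of the 35 genes. The E-box occurred in 7 of the 30 (23.3%), in 12.2% of the 5645 tested genes with a window, and in 8.09% of all 27025 genes with one. It occurred in 18.1% of 127 genes of a wider pathway list outside the 35, described below, and in 14.2% of the 852 genes with a window that rose. In 6 of the 7 it lay just after the start site, and in Nop2 it began 60 bases before it. The 6 are shown from 50 bases before to 50 bases after the start site, 5′ to 3′ on the gene's own strand, in order of E-box position and with the E-box in capitals, because they are the members in which this element and the start site can be seen together.
Pes1: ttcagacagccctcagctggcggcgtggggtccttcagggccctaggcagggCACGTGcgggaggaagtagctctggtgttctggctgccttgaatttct
Utp4: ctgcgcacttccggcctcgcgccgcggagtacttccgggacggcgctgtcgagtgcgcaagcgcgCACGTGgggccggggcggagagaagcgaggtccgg
Wdr43: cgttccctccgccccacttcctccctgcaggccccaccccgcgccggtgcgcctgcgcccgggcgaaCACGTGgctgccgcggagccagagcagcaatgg
Tsr1: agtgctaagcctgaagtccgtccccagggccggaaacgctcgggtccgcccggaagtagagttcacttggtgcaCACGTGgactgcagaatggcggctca
Ltv1: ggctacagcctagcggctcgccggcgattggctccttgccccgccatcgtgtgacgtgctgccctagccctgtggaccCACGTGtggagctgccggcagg
Utp20: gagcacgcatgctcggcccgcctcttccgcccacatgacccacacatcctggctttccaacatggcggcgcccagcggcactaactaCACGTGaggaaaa

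These windows are chr11:3963925-3964024 (plus strand), chr8:106893590-106893689 (plus strand), chr17:71616165-71616264 (plus strand), chr11:74898030-74898129 (plus strand), chr10:13193088-13193187 (minus strand) and chr10:88826765-88826864 (minus strand). The element began 3, 16, 18, 25, 29 and 38 bases after the start site in that order, counting the start site as base 1. Start sites here are those of RefSeq. For Wdr43 the whole window lies downstream of the GENCODE start of the gene, 71615895. Pes1, Utp4, Wdr43 and Ltv1 are among the genes that rose, and Tsr1 and Utp20 were not called. E-boxes were present in 4 of the 14 genes with a window that rose and in 3 of the other 16 genes. Wdr12 and Noc2l have more than 1 window, and a match in any window of a gene was counted. The letters CCGGAAG, a core bound by ETS factors, were searched on both strands and found in 9 of the 30 genes. They were found in 44.1% of the 127 other pathway genes and in 20.9% of the tested genes with a window. The letters CTCGCGAG, also searched, were found in 1 of the 30 genes and in 2.67% of the tested genes with a window. A match is a stretch of letters and says nothing of binding in these cells.

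The nucleolar proteins that act at several steps all rose, 5 of 5. Npm1 encodes nucleophosmin, a histone and ribosomal protein chaperone that forms much of the outer nucleolus (chromosome 11, 33152287 to 33163206). It stood at 288, 351 and 291 CPM in sham libraries 1 to 3 and at 845, 573 and 909 CPM in overloaded libraries 1 to 3. Overloaded library 2 was the lowest of its group and still exceeded every sham library. The mean went from 309.6 ± 35.4 to 776 ± 178 CPM (SD over n = 3 libraries; log2 fold change 1.33, SE 0.21, adjusted p = 1.56e-05).

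Ddx21, an RNA helicase that binds the precursor RNA and snoRNAs (chromosome 10, 62580251 to 62602281), was at 112, 172 and 157 CPM in the sham group against 343, 359 and 503 CPM in the overloaded group, with no overlap. It rose from 147 ± 31.5 to 402 ± 88.2 CPM (log2 fold change 1.46, SE 0.23, adjusted p = 1.18e-05). Ncl, which encodes nucleolin, a chromatin and RNA binding protein needed for ribosomal DNA transcription (chromosome 1, 86344719 to 86359400), was at 371, 506 and 501 CPM in the sham group against 1006, 631 and 655 CPM in the overloaded group. Overloaded library 1 was far above the other two for Ncl. The gene rose from 459 ± 76.5 to 764 ± 210.1 CPM (log2 fold change 0.74, SE 0.21, adjusted p = 0.00901), with a log2 fold change of 0.52 and an adjusted p of 0.078 without overloaded replicate 1, and of 0.64 and 0.0536 without sham replicate 1.

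The remaining pair rose as well. Nolc1, encoding a chaperone that carries snoRNPs between Cajal bodies and the nucleolus (chromosome 19, 46075863 to 46085530), was at 159, 162 and 196 CPM in the sham group against 257, 241 and 285 CPM in the overloaded group (log2 fold change 0.59, SE 0.21, adjusted p = 0.033). Gnl3, the gene for the GTPase nucleostemin (chromosome 14, 31012433 to 31019152), was at 215, 166 and 187 CPM in the sham group against 306, 232 and 304 CPM in the overloaded group (log2 fold change 0.57, SE 0.21, adjusted p = 0.0442). Groups did not overlap for either gene, but both calls were close to the threshold. Nolc1 lost its call without sham replicate 1, sham replicate 2 or overloaded replicate 3 (adjusted p = 0.0775, 0.101 and 0.099), and Gnl3 without sham replicate 2 or 3 or overloaded replicate 1 or 3 (adjusted p = 0.155, 0.109, 0.0944 and 0.116). Over all alternatives Gnl3 lost its call in 10 of 15, DESeq2 (adjusted p = 0.0531) and the replicate block (0.0509) among them, and Nolc1 in 7 of 15.

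**Figure D2:**
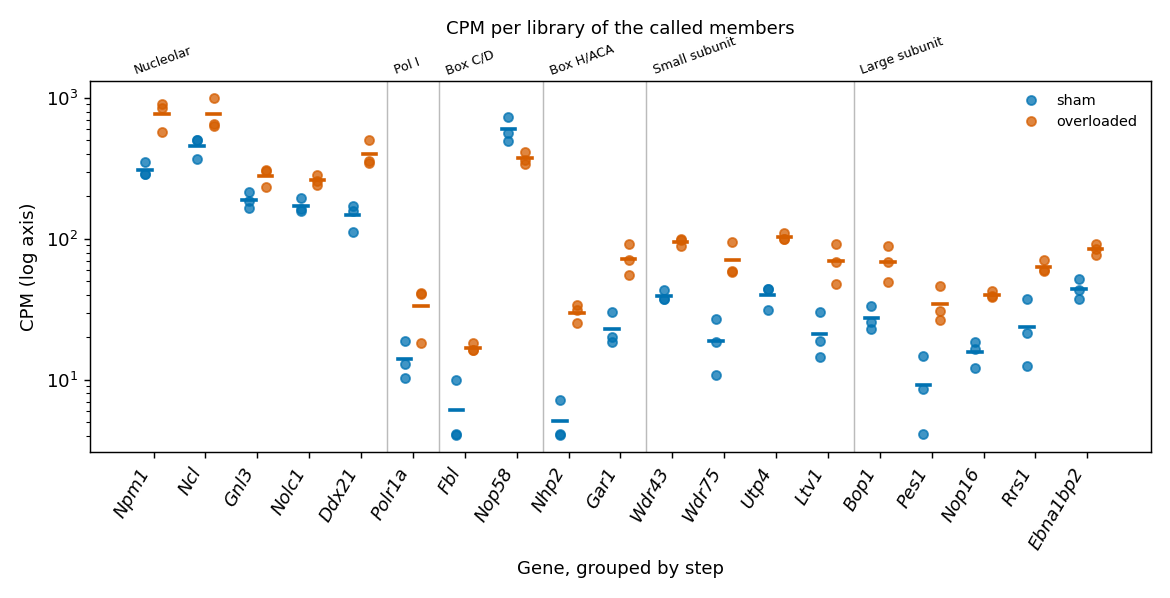
CPM (logarithmic axis) of the 19 called genes in each library, grouped by step, with blue points for sham, orange points for overloaded and bars for group means. Overloaded points lie above all sham points for 17 of the 18 genes that rose, with Polr1a the one that overlaps, and below them for Nop58.

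For RNA polymerase I itself the counts were low. Polr1a, which encodes the largest subunit of the enzyme (chromosome 6, 71909053 to 71984935), was at 12.9, 10.4 and 18.8 CPM in the sham group against 18.3, 41.4 and 40.5 CPM in the overloaded group, so that overloaded library 1 fell within the sham range. It passed the test (log2 fold change 1.19, SE 0.42, adjusted p = 0.0319) and lost its call when sham replicate 1 or 2 or overloaded replicate 2 or 3 was left out (adjusted p = 0.0814, 0.104, 0.102 and 0.116), and in 7 of 13 alternatives in all, DESeq2 and limma-voom included. Polr1b, another subunit of the catalytic core, had 4, 0 and 0 counts per sham library and 4, 6 and 7 per overloaded library and was not tested. In the fit with no filter its adjusted p was 0.488.

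In the core of box C/D snoRNPs 1 gene rose, 1 fell and 1 was not called. Fbl encodes fibrillarin, the enzyme that methylates ribosomal RNA (chromosome 7, 28169710 to 28179269), and its libraries held 7, 2 and 3 counts per sham library and 19, 13 and 14 per overloaded library, or 10.02, 4.15 and 4.04 and 18.3, 16.3 and 16.2 CPM. The groups did not overlap, and Fbl rose (log2 fold change 1.43, SE 0.55, adjusted p = 0.0493), although the call was lost when any library other than sham replicate 1 was left out (adjusted p = 0.0946 to 0.189). Without sham replicate 1, which holds 7 of its 12 sham counts, the log2 fold change was 2.05. Over all alternatives Fbl lost its call in 11 of 13, among them DESeq2 (adjusted p = 0.121), limma-voom (0.0838) and the replicate block (0.0616).

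Nop58, one of the paired scaffold proteins of the same particle (chromosome 1, 59684971 to 59719044), was the 1 gene of the 35 that fell. It stood at 498, 738 and 561 CPM in the sham group against 365, 339.8 and 416 CPM in the overloaded group, with every overloaded library below every sham library. The mean went from 599 ± 124 to 374 ± 39.1 CPM (log2 fold change -0.68, SE 0.20, adjusted p = 0.012). Without sham replicate 2, its highest library, the log2 fold change was -0.50 and the adjusted p 0.118. Nop56, the partner scaffold, was at 27.2, 49.8 and 16.1 CPM in the sham group against 55.8, 33.9 and 39.3 CPM in the overloaded group, which overlap, and was not called (log2 fold change 0.54, SE 0.36, adjusted p = 0.284). These genes were not tested against each other.

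Several members carry snoRNA genes within their span, and those small RNAs were almost unmeasured. In GENCODE M21, 7 of the 35 genes hold 21 annotated snoRNAs on their own strand, among them 4 in Nop58 and 5 in Nop56. The 21 snoRNA genes had 2 counts in all in sham and 4 in overloaded libraries. For Nop58 its 4 snoRNA genes had 0 counts in each group.

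Among box H/ACA proteins, Nhp2 and Gar1 rose while Dkc1 and Nop10 were not called. Nhp2, an RNA binding subunit (chromosome 11, 51619735 to 51623714), had 5, 2 and 3 counts per sham library and 35, 20 and 27 per overloaded library, or 7.16, 4.15 and 4.04 and 33.7, 25.1 and 31.2 CPM. It had the largest log2 fold change of the 32 genes tested (log2 fold change 2.5, SE 0.49, adjusted p = 0.000234). Gar1, a subunit that helps the enzyme release its product (chromosome 3, 129824912 to 129831396), was at 30.1, 18.7 and 20.2 CPM in the sham group against 55.8, 70.2 and 91.4 CPM in the overloaded group and also did not overlap (log2 fold change 1.63, SE 0.33, adjusted p = 0.000302). Both calls held in every alternative in which the genes were tested.

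Dkc1, the pseudouridine synthase dyskerin, was at 12.9, 43.6 and 18.8 CPM in the sham group against 29.8, 21.3 and 41.6 CPM in the overloaded group (log2 fold change 0.38, SE 0.41, adjusted p = 0.532). The small subunit Nop10 was at 40.1, 26.96 and 16.1 and 67.3, 30.1 and 45.1 CPM (log2 fold change 0.79, SE 0.36, adjusted p = 0.104). Sham and overloaded libraries overlap for both. Nop10 passed the test without sham replicate 1 (log2 fold change 1.24, adjusted p = 0.0352) and without overloaded replicate 2 (1.04 and 0.0343).

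**Figure D3:**
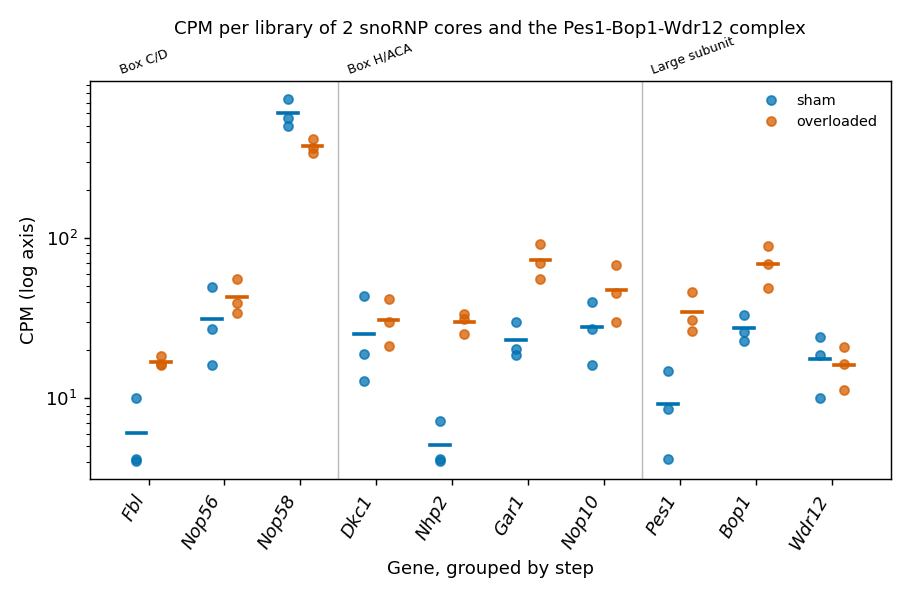
CPM (logarithmic axis) per library for the subunits of the box C/D core, the box H/ACA core and the Pes1-Bop1-Wdr12 complex, with blue points for sham, orange points for overloaded and bars for group means. Overloaded points lie above the sham points for Fbl, Nhp2, Gar1, Pes1 and Bop1, below them for Nop58, and overlap them for Nop56, Dkc1, Nop10 and Wdr12.

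Of 11 small subunit factors, 10 were tested and 4 rose: Wdr75, Ltv1, Utp4 and Wdr43. Wdr43, Wdr75 and Utp4 belong to the early complex that joins the precursor RNA while it is being transcribed. Wdr75 (chromosome 1, 45795166 to 45823619) was at 18.6, 26.96 and 10.8 CPM in the sham group against 94.3, 58.9 and 57.8 CPM in the overloaded group (log2 fold change 1.96, SE 0.36, adjusted p = 9.60e-05). Utp4 (chromosome 8, 106893636 to 106923088) was at 44.4, 31.1 and 44.4 and 100.03, 110.4 and 99.5 CPM in the same order (log2 fold change 1.34, SE 0.27, adjusted p = 0.000272). Wdr43 (chromosome 17, 71615895 to 71659031) was at 37.2, 37.3 and 43.1 and 98.1, 89.04 and 99.5 CPM (log2 fold change 1.277, SE 0.27, adjusted p = 0.000523). The spread within each group was small for Utp4 and Wdr43, no group overlapped, and all 3 calls held in each of the 15 alternatives. Ltv1, a late factor that leaves the particle before it matures in the cytoplasm (chromosome 10, 13178140 to 13193168), was at 30.1, 14.5 and 18.8 CPM in the sham group against 91.4, 47.7 and 68.2 CPM in the overloaded group (log2 fold change 1.68, SE 0.35, adjusted p = 0.000388).

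The other 6 small subunit factors tested were not called. Bysl (bystin) had a log2 fold change of 1.19 (SE 0.52), Nob1, the nuclease that makes the last cut in the small subunit RNA, 0.81 (SE 0.41), and Tsr1, a GTPase-like late factor, 0.89 (SE 0.42). Rrp9, which binds the snoRNA that guides early cleavage, had 0.86 (SE 0.41), and Utp20, a large scaffold protein, 0.36 (SE 0.39). Of these, Bysl and Nob1 had overloaded libraries above all sham libraries. Nop14, a scaffold of the early particle, was at 28.6, 109.9 and 43.1 CPM in the sham group against 39.4, 21.3 and 30.1 CPM in the overloaded group (log2 fold change -0.92, SE 0.41, adjusted p = 0.0942), with sham library 2 far above the rest. Without sham replicate 1 it was called lower (log2 fold change -1.23, adjusted p = 0.0228). Leaving out 1 library also brought Rrp9 past the threshold (1.71, adjusted p = 0.00419 without sham replicate 1) and Tsr1 (1.17, adjusted p = 0.0396 without overloaded replicate 2). Rrp12, an export factor, had 0, 2 and 2 counts per sham library and 8, 4 and 6 per overloaded library and was not tested, and its adjusted p with no filter was 0.477.

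Large subunit factors numbered 10, of which 9 were tested and 5 rose. Pes1 and Bop1 form a complex with Wdr12 that is needed to process the large subunit RNA. Pes1 (chromosome 11, 3963975 to 3980004) was at 8.59, 4.15 and 14.8 CPM in the sham group against 30.8, 26.3 and 46.3 CPM in the overloaded group (log2 fold change 1.81, SE 0.45, adjusted p = 0.00234). Bop1 (chromosome 15, 76452989 to 76477277) was at 25.8, 33.2 and 22.9 and 49.1, 68.97 and 89.1 CPM in the same order (log2 fold change 1.35, SE 0.32, adjusted p = 0.00189). Neither gene overlapped between groups. Wdr12, their partner, was at 10.02, 18.7 and 24.2 CPM in the sham group against 16.4, 11.3 and 20.8 CPM in the overloaded group and was not called (log2 fold change -0.12, SE 0.46, adjusted p = 0.881). Whether it differs from Pes1 and Bop1 was not tested.

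Rrs1, which brings a ribosomal RNA and protein module to the large subunit (chromosome 1, 9545408 to 9547455), was at 37.2, 12.4 and 21.5 CPM in the sham group against 60.6, 70.2 and 58.99 CPM in the overloaded group (log2 fold change 1.36, SE 0.34, adjusted p = 0.00275). Nop16 (chromosome 13, 54584185 to 54590090) was at 18.6, 16.6 and 12.1 and 38.5, 42.6 and 39.3 CPM (log2 fold change 1.35, SE 0.37, adjusted p = 0.0059). Ebna1bp2, the Ebp2 homologue (chromosome 4, 118620799 to 118627776), was at 37.2, 51.8 and 43.1 and 84.6, 91.5 and 76.3 CPM (log2 fold change 0.95, SE 0.27, adjusted p = 0.00907). All 3 had overloaded libraries above every sham library, and for Nop16 the overloaded libraries were close together. Noc2l, at 1.37 (SE 0.56), the RNA methyltransferase gene Nop2, at 0.68 (SE 0.37), and Rrp1, at -0.34 (SE 0.30) on the log2 scale, were not called. Mrto4, which holds the place of a ribosomal stalk protein during assembly, had 2, 1 and 2 counts per sham library and 14, 9 and 15 per overloaded library. Too few of its libraries reached the filter, and in the fit without one it was called higher, with a log2 fold change of 2.45 and an adjusted p of 0.0244.

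By step, the median log2 fold change of the genes tested was 0.74 for the 5 nucleolar proteins, 1.21 for the 4 box H/ACA proteins, 1.04 for the 10 small subunit factors and 1.35 for the 9 large subunit factors. It was 0.54 for the 3 box C/D proteins. The steps hold few genes and were not tested against each other. They also differ in counts. At least 1 sham library missed the filter level for 5 of the 9 large subunit factors and 4 of the 10 small subunit factors. That held for 1 box H/ACA gene, 1 box C/D gene and 0 of the 5 nucleolar genes.

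A wider list of 151 genes outside the 35 also had more genes higher than lower. It holds ribosome biogenesis factors, exosome genes and long non-coding RNAs that host snoRNAs. All but Snhg4 and Snhg7 were found by symbol. Of the 149 found, 99 were tested, 28 rose and 2 fell, with a median log2 fold change of 0.64 and 79 of the 99 above 0. The all-gene shares of 15% higher and 14.3% lower stand beside this count and those of its smaller lists, several of which are not far from them. Of the 99 genes, 70 had all 3 sham libraries at the filter level, and 21 of these rose and 2 fell. In 2 of the 99 no sham library reached it. The all-gene shares were not limited in that way. Among large subunit factors, 14 of 36 tested rose. Eif6, which keeps the subunits apart until assembly is finished, was at 41.5, 39.4 and 49.8 CPM in the sham group against 146, 173 and 150.4 CPM in the overloaded group (log2 fold change 1.83, SE 0.25, adjusted p = 1.73e-06). Sdad1 went from 15.5 ± 1.46 to 75.8 ± 19.5 CPM (log2 fold change 2.27, SE 0.34, adjusted p = 7.31e-06), Rsl24d1, a placeholder for a ribosomal protein, from 16.6 ± 2.26 to 56.7 ± 9.25 CPM, and Rpf2, a partner of Rrs1, from 11.1 ± 8.39 to 40.8 ± 11.1 CPM. The 1 large subunit gene that fell, named after its value was seen, was the helicase gene Ddx55 (log2 fold change -1.48).

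Small subunit factors rose in 8 of 36 cases, led by Lyar (25.96 ± 8.92 to 74.04 ± 19.3 CPM), Mphosph10 (24.8 ± 5.92 to 65.4 ± 13.4 CPM), Pno1, the partner of Nob1 (38.3 ± 16.3 to 90.8 ± 7.33 CPM), and Wdr36 (22.1 ± 6.16 to 45.7 ± 6.23 CPM). Of 9 further RNA polymerase I genes tested, 2 rose. Tcof1, which encodes the polymerase I cofactor treacle, went from 41.4 ± 12.5 to 124 ± 24.1 CPM (log2 fold change 1.56, SE 0.27, adjusted p = 5.70e-05), and Polr1c, a subunit shared by polymerases I and III, from 56.3 ± 13.7 to 129 ± 47.4 CPM (log2 fold change 1.18, SE 0.28, adjusted p = 0.00211). Of 4 snoRNP assembly factors tested, 1 rose, Nufip1 (5.11 ± 4.52 to 24.6 ± 9.68 CPM). No sham library of Nufip1 reached the filter level, so it entered the test through overloaded libraries only. Of the 2 such factors with all 3 sham libraries at that level, 0 rose. The exosome, which trims ribosomal RNA precursors, had 2 of 7 genes higher, Exosc1 (20.9 ± 5.34 to 50.4 ± 16.5 CPM) and Mphosph6 (22.5 ± 9.43 to 44.9 ± 4.29 CPM). Mphosph6 lost its call in 9 of 15 alternatives (adjusted p up to 0.193), Wdr36 in 5 of 15 (up to 0.271), Exosc1 in 3 of 14 (up to 0.178) and Nufip1 in 2 of 13 (up to 0.115). Lyar and Polr1c lost theirs with the background covariate only.

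Long non-coding RNAs that host snoRNAs had a median below 0. Of 7 tested, 1 rose (Snhg6, 18.2 ± 7.79 to 37.3 ± 3.42 CPM) and 1 fell (Snhg8, 46.6 ± 20.5 to 24.4 ± 3.99 CPM), which is near the all-gene share in each direction, and their median log2 fold change was -0.37. Snhg6 lost its call in 9 of 14 alternatives (adjusted p up to 0.211, without sham replicate 3) and Snhg8 in 8 of 14 (up to 0.449, with the background covariate).

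**Figure D4:**
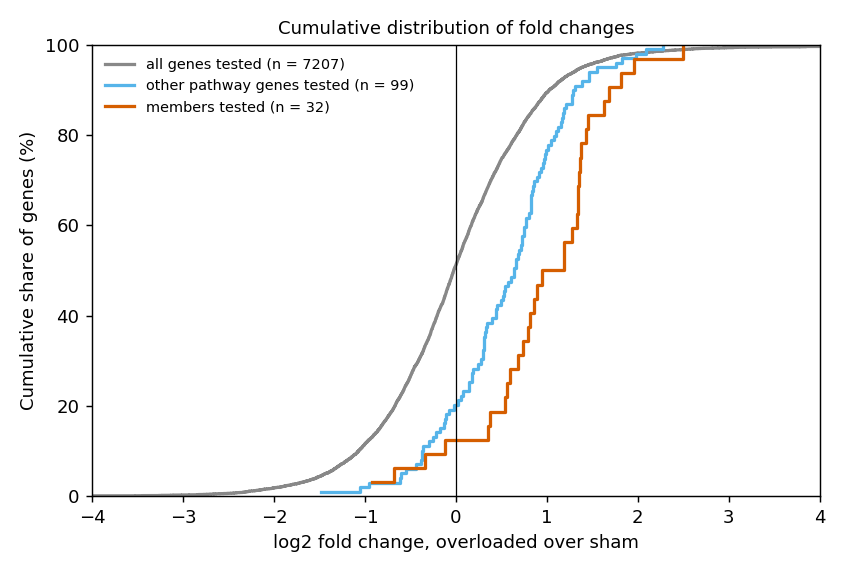
Cumulative share of genes (vertical axis, percent) by log2 fold change (horizontal axis, with the far ends left out) for the 32 members tested, the 99 other pathway genes tested and all 7207 genes. The medians are 1.07, 0.64 and -0.02, and the curve of the members lies furthest right over most of its range.

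Myc messenger RNA moved the other way from most of these genes. It was at 414, 272 and 300.1 CPM in the sham group against 179.9, 150.5 and 244 CPM in the overloaded group, with every overloaded library below every sham library. The mean went from 329 ± 75.2 to 191 ± 47.9 CPM (log2 fold change -0.78, SE 0.23, adjusted p = 0.00869), and the call was lost without sham replicate 1 (log2 fold change -0.54, adjusted p = 0.104) or overloaded replicate 2 (-0.62 and 0.0573). Mycn had 4, 4 and 3 counts per sham library and 10, 2 and 3 per overloaded library and was not tested. Max, the partner of Myc, was at 136, 133 and 139 and 116, 186 and 163 CPM and was not called. Mxi1, which encodes a repressor that competes with Myc for Max and is named after its value was seen, was at 55.8, 49.8 and 44.4 CPM in the sham group against 10.6, 27.6 and 30.1 CPM in the overloaded group, without overlap. It fell as well (log2 fold change -1.16, SE 0.36, adjusted p = 0.0145). Mxd1, Mxd4 and Mnt, repressors of the same network, were not called. Messenger RNA does not measure Myc protein.

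Marker lists of other cell types were checked by their summed levels. The 11 leukocyte markers summed to 19.6 ± 6.36 CPM (sham) and 9.64 ± 9.37 CPM (overloaded), with Adgre1, Cd52, Tyrobp and Lyz2 at 0 in all 6. The 8 endothelial markers summed to 162 ± 59.6 CPM (sham) and 63.2 ± 27.5 CPM (overloaded). Most of the sham sum was Tek, which went from 119 ± 11.9 to 27.01 ± 4.18 CPM, the 1 endothelial marker called. The 10 muscle fibre markers summed to 53.7 ± 17.3 CPM (sham) and 29.2 ± 3.78 CPM (overloaded). Pericyte and smooth muscle markers summed to 108 ± 13.6 CPM (sham) and 378 ± 100.3 CPM (overloaded), most of it Acta2 in overloaded libraries, satellite cell markers to 57.3 ± 10.2 CPM (sham) and 119 ± 21.2 CPM (overloaded), most of it Vcam1, and tendon cell markers to 127 ± 16.4 CPM (sham) and 3957 ± 516 CPM (overloaded), nearly all of it Thbs4. Myod1 was at 0 in all 6 libraries. Adipocyte markers summed to 2.39 ± 4.13 CPM (sham) and 2.09 ± 1.53 CPM (overloaded), with Retn at 0. The 9 FAP markers summed to 26946 ± 1847 CPM (sham) and 13599 ± 1279 CPM (overloaded). Most of both sums was Dcn, which went from 20310 ± 1611 to 8208 ± 476 CPM. Of the 9, 6 fell, where 14.3% of all genes tested did, and Pdgfra, Ly6a and Lum were not called. The 14 proliferation markers summed to 81.00 ± 22.4 CPM (sham) and 564 ± 235 CPM (overloaded). Of the 8 tested, 7 rose, where 15% of all genes tested did. That count leans on the filter. Mki67, Cdk1, Birc5, Cenpa, Mcm2 and Rrm2 had no sham library at the filter level, and Top2a had 1. Pcna, with all 3 sham libraries at that level, was not called (adjusted p = 0.405). The exact two-sided permutation p was 0.1, the smallest that 3 against 3 allows, for the FAP, endothelial, pericyte, satellite cell, muscle fibre, tendon and proliferation sums, 0.3 for leukocytes and 0.6 for adipocytes. Their part in the rise of the ribosome biogenesis genes was not tested.

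Background reads also differed between libraries, measured here as the share falling on olfactory and vomeronasal receptors, whose known expression is in sensory neurons. They made up 1445, 1819 and 781 CPM of the whole library in sham libraries 1 to 3 and 308, 1092 and 232 CPM in overloaded libraries 1 to 3. Sham libraries 1 and 2 had the highest shares and overloaded libraries 1 and 3 the lowest, so the share partly follows the groups. A fit with this covariate therefore cannot fully tell background from load, and why calls were lost in it was not tested. With the log2 of this share as a covariate in edgeR, 11 of the 32 genes rose, against 6.77% of all genes tested, and the median log2 fold change was 1.11. Of the 18 genes that rose without the covariate, 10 rose with it: Npm1, Ddx21, Nhp2, Gar1, Wdr43, Wdr75, Utp4, Bop1, Nop16 and Rrs1. Rrp9 was the additional gene (log2 fold change 1.58, adjusted p = 0.0288). The median SE widened from 0.37 to 0.51. Gnl3 had a log2 fold change of 0.30, Ltv1 of 1.23, Pes1 of 1.19, Ebna1bp2 of 1.1 and Nop58 of -0.73 in that fit, none of them called. Polr1c went to 0.33.

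**Figure D5:**
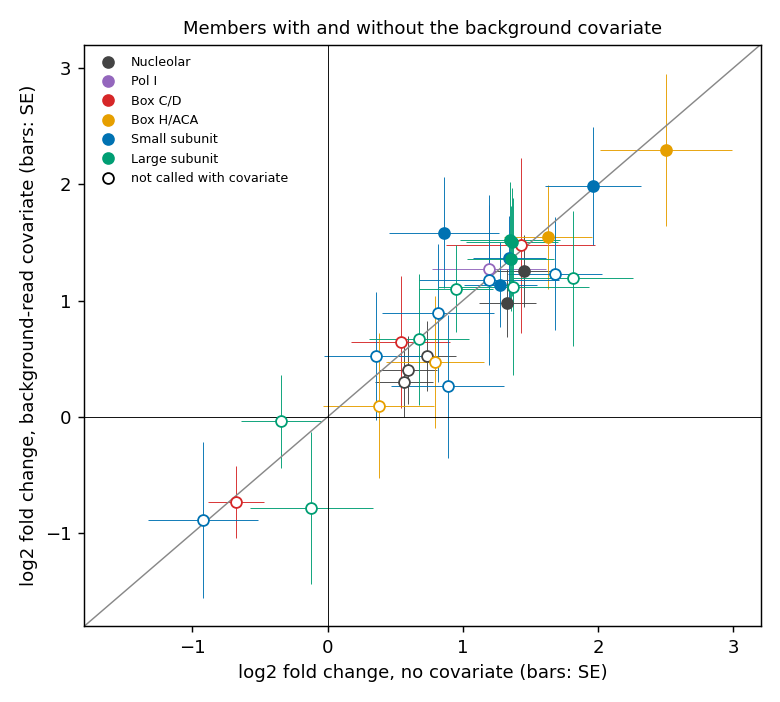
Log2 fold change (overloaded over sham) of the 32 genes without a covariate (horizontal axis) and with background reads as a covariate (vertical axis), with SE bars and the line of equality, coloured by step. Filled points mark the 11 genes called with the covariate, and 28 of the 32 genes lie above 0 on the vertical axis.

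The counts of some of these genes are uncertain where other genes share their exons, since the labels do not state the strand setting of the counting. A protein-coding gene on the opposite strand shares exon bases with 11 of the 35 genes, under 200 bases in 8 of them. Tsr1 shares 1240 of 3837 exon bases with Srr, Noc2l 598 of 2867 with Samd11 and Bysl 361 of 3854 with Ccnd3. Counts summed over the sham and the overloaded group were 11 and 8 for Srr, 0 and 0 for Samd11, and 9 and 17 for Ccnd3. None of those 3 members was called. Pseudogenes named after members (1 of Fbl, 2 of Mrto4) held 0 counts, and reads shared with other unnamed copies were not examined.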

How the data were processed

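Messenger RNA of FAPs was measured in 3 sham and 3 overloaded libraries. Per the labels, libraries followed a published protocol (CEL-Seq2, which tags the ends of polyadenylated RNA). The authors deposited unnormalised whole-number counts for each gene. The submitters' processing notes name GRCm38, featureCounts 2.0.1, HISAT2 2.2.1, DESeq2 1.28.1 and Trim Galore 0.6.6. They give no roles, and the annotation release, strandedness, treatment of multiply mapped reads and any molecular identifiers are likewise not stated.

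The members, step lists, wider list and marker lists were chosen with earlier results of these data known. Groups came from the treatment labels. Genes were filtered with filterByExpr (minimum count 10, minimum total 15), scaled by TMM and tested with edgeR 4.0.16 in R 4.3.3 (quasi-likelihood F test, robust, Benjamini-Hochberg over 7207 genes). SE is the log2 fold change divided by the square root of F. The biological coefficient of variation was 21.2%. Each member is accounted for: called ones with values per library, others with fold changes or counts. Up to 4 called genes of each wider list, by adjusted p, and Myc and Mycn were named. Marker sums used an exact permutation test on log2(sum + 1), and 1 marker list is not reported here. The test was checked on simulated counts. Gene positions and snoRNAs came from GENCODE M21 and promoters from RefSeq, both GRCm38. Alternatives were other scalings, filters, DESeq2 1.42.0, limma-voom 3.58.1, a replicate block, thinning to 500402 counts, the background covariate, and leaving out each library.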

Additional observations from a re-analysis of the deposited data

How the results depend on the processing

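Over 15 alternatives the number of members that rose ranged from 11 with the background covariate to 18, and their median log2 fold change from 0.96 to 1.27. Of the 19 called members, 10 kept their call in every alternative in which they were tested. With the background covariate the counts were 488 higher and 381 lower over all genes, 11 and 0 for members, and 10 and 0 for the wider list, where edgeR at an unadjusted p under 0.05 gave 1 lower member and 2 lower genes of the wider list. With no filter they were 0 lower members (2 at an unadjusted p under 0.05) and 1 lower gene of the wider list. DESeq2 found 1 lower member. The wider list had 1 lower gene by DESeq2, with the replicate block and after thinning, and 0 with a minimum count of 30 (also 0 at an unadjusted p under 0.05). Leaving out each library gave 14 to 18 higher and 0 to 2 lower members, a median of 0.96 to 1.24, 20 to 31 higher and 1 to 3 lower genes of the wider list, and 853 to 1073 higher and 742 to 960 lower genes in all. The 0 came without sham replicate 2 (1 at an unadjusted p under 0.05) and the 2 without sham replicate 1. Without overloaded replicate 1 the wider list had 3 lower genes, the most of any. Wdr12 changed sign to 0.24 without sham replicate 3 and 0.09 without overloaded replicate 2, and was not called in either (-0.38 to 0.24 when each library was left out). A filter or an omission leaves fewer genes or libraries. The causes of these changes were not tested.

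Deviations from the group means were hardly correlated between same-numbered libraries (correlations 0.00822, 0.0144 and 0.0149). With 3 libraries per group this cannot decide whether the numbers mark a shared animal or batch. With the replicate block, 16 members were higher and 1 lower, and 27 genes of the wider list were higher. Scaling by library size only moved the median of all genes by -0.07 and gave 15 higher members, with 28 of 32 above 0. Of 32 members tested, DESeq2's Wald test gave 15 and limma-voom 16. A minimum count of 30 gave 13 of the 18 members it left, and thinning gave 14 of 26. Polr1b, Rrp12 and Mrto4 had too few counts to be tested.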
